A study of Mus musculus with 8 samples.

Results

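Avpr1a and Oxtr encode receptors for the peptide hormones vasopressin and oxytocin, and their expression was followed in cells sorted from resting mouse hair follicles. The 2 genes, of 18193 measured, were selected on their measured signals, which were far higher in cells sorted as hair germ than in cells sorted as bulge. They were read by all their probe sets that the platform annotation assigns to a single gene, which came to 4 of 34945 such probe sets, with 2 for each gene. A probe set is a group of short array probes that together report 1 transcript. The 8 samples formed 4 groups of 2 biological replicates, each on 1 Affymetrix Mouse Genome array: Runx1 iTG hair germ, WT hair germ, Runx1 iTG bulge and WT bulge. Runx1 iTG mice carried a transgene for the transcription factor Runx1, and WT mice were the controls. Every mouse, WT included, had 1 day of food with doxycycline (1 g per kg), which the treatment record describes as a means to repress H2BGFP. The promoter that drives the transgene, and whether several mice were pooled for 1 sample, are not stated in the labels. The mice were 20 days old and their follicles in telogen, when growth rests, but both Runx1 iTG samples numbered 2 are labelled day 21. The sort kept cells positive for keratin 15-GFP and α6-integrin. The CD34-negative ones were collected as hair germ and the CD34-positive ones as bulge.

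Both receptors are G protein-coupled. The vasopressin receptor 1A, encoded by Avpr1a, and the oxytocin receptor, encoded by Oxtr, couple mainly to Gq proteins, which activate phospholipase C and release calcium inside the cell. Avpr1a is best known for vasoconstriction and liver glycogen breakdown, and Oxtr for uterine contraction and milk ejection. In the hair follicle, the bulge holds long-lived stem cells, the hair germ below it starts the new hair, and the sebaceous gland sits above the bulge.

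In the RefSeq annotation of the mouse genome build GRCm38.p6, Avpr1a spans chr10:122448499-122453453 on the forward strand and Oxtr spans chr6:112473683-112491035 on the reverse strand. Which part of each transcript the array's probes cover was not analysed here. The 250 bases before the listed start of Avpr1a are printed because the 2 genes shared a pattern of signal that the upstream sequence can be set beside. This window is chr10:122448249-122448498, forward strand, 5′ to 3′, with a match to the TATA box motif (TATAAA) in capitals.
Avpr1a: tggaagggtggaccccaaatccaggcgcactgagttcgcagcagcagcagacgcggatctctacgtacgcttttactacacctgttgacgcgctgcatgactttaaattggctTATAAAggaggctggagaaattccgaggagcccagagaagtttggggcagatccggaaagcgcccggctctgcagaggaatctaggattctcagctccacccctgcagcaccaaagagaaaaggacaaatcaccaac
Of the window before a listed start of Oxtr, only the 30 bases around its E-box (CACGTG, in capitals) are printed, since the annotated gene reaches past this start. They lie at chr6:112489851-112489880 on the reverse strand.
Oxtr: cgggccccgcccCACGTGccacactttaaa
Motifs of 4 kinds were searched on both strands, a choice made with the expression values known: the Runx core TGTGGT, the TATA box TATAAA, the E-box CACGTG and the TCF/LEF core TCAAAG. The Avpr1a window held a match to the TATA box motif, 137 to 132 bases before the start, and none of the other motifs. The Oxtr window held a match to the E-box motif, 43 to 38 bases before the start, and none of the other motifs. Whether either match works as a promoter element was not tested. Among 32851 RefSeq windows of the same length, 12.4% held the TATA box, 6.02% the E-box, 14% the Runx core and 13.8% the TCF/LEF core. The GC content of the windows was 53.6% for Avpr1a and 61.6% for Oxtr, against a median of 52.4% over all windows.

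Signals are given as linear array intensity, brought to the same 75th percentile on every array, and 31.1 was taken as background from bacterial control probe sets. On the 8 arrays, 69.0% to 77.0% of all probe sets exceeded it. Runx1 itself (probe set 1452530_a_at) read 12107 and 12882 in Runx1 iTG CD34-negative cells, against 495 and 489 in WT CD34-negative cells. It read 19461 and 13699 in Runx1 iTG CD34-positive cells, against 658 and 904 in WT CD34-positive cells, so this probe set fitted the genotype labels on every array. Of the 6 Runx1 probe sets, 2 were higher without overlap in Runx1 iTG cells of each population, while 4 were lower without overlap in Runx1 iTG CD34-negative cells and 2 in Runx1 iTG CD34-positive cells. Of all probe sets, 17.7% were higher in this way in CD34-negative cells, and 15.3% were higher and 18% lower in CD34-positive cells. The share lower in CD34-negative cells was not counted, so nothing is read from the 4 Runx1 probe sets lower there. The sort gene fitted its label as well. Cd34 averaged 3.56 in Runx1 iTG and 14.2 in WT CD34-negative cells, both below background, and 6492 in Runx1 iTG and 8907 in WT CD34-positive cells.

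The markers went against the name hair germ for the CD34-negative cells. All 8 listed hair germ markers (Cdh3, Gli1, Ptch1, Lef1, Msx2, Hoxc13, Dlx3 and Lgr5) had lower means in CD34-negative than in CD34-positive cells in both genotypes. Of these, 6 passed the test in Runx1 iTG mice and 7 in WT mice. The test here and below is a limma fit over all genes with Benjamini-Hochberg adjustment, which called 5.26% of all genes lower in CD34-negative cells in Runx1 iTG mice and 3.79% in WT mice. Lgr5, a stem cell marker that extends into the hair germ, averaged 294 in Runx1 iTG CD34-negative cells against 7254 in Runx1 iTG CD34-positive cells, and 345 in WT CD34-negative cells against 9185 in WT CD34-positive cells. By contrast, all 4 measured sebocyte markers rose in CD34-negative cells in both genotypes, where 4.5% of all genes in Runx1 iTG mice and 3.14% in WT mice were called higher. They were Scd1, Far2, Cidea and Pparg, genes of lipid synthesis, lipid droplets and fat cell gene control. The populations are therefore called CD34-negative and CD34-positive below, after the sort gate.

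Both receptor genes were bright in CD34-negative cells and dim in CD34-positive cells of both genotypes. These differences chose the genes and are given as a description, with no test. The probe set 1418603_at, which is the brighter one of Avpr1a and stands for the gene, read 12381 and 12785 in Runx1 iTG CD34-negative cells, against 390.1 and 402 in Runx1 iTG CD34-positive cells. It read 10983 and 12298 in WT CD34-negative cells, against 78.7 and 116 in WT CD34-positive cells. The 4 CD34-negative arrays thus lay close together and far above every CD34-positive array, and the groups did not overlap. The ratio of CD34-negative to CD34-positive means was 31.8 in Runx1 iTG mice and 122 in WT mice. In bulk samples such as these, fewer cells that express a gene and less of its RNA per cell cannot be told apart.

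The second Avpr1a probe set, 1418604_at, read 6933 and 7506 in Runx1 iTG CD34-negative cells, against 107 and 51.1 in Runx1 iTG CD34-positive cells. It read 3940 and 6229 in WT CD34-negative cells, against 9.11 and 77.8 in WT CD34-positive cells. It showed the same step between the populations, with more scatter at the dim end, where 1 WT array lay below background and the other above it. The ratio was 97.5 in Runx1 iTG mice and at least 159 in WT mice, where the CD34-positive mean lay below background.

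For Oxtr, the brighter probe set 1440888_at read 3311 and 3963 in Runx1 iTG CD34-negative cells, against 103 and 334 in Runx1 iTG CD34-positive cells. It read 2529 and 4384 in WT CD34-negative cells, against 64.4 and 289 in WT CD34-positive cells. Its populations did not overlap either, and the replicates of its CD34-positive groups lay further apart than those of the brighter Avpr1a probe set. The ratio was 19.5 in Runx1 iTG mice and 24.4 in WT mice. The dimmer probe set 1426000_at read 687 and 990.4 in Runx1 iTG CD34-negative cells, against 148 and 34.8 in Runx1 iTG CD34-positive cells. It read 483 and 594 in WT CD34-negative cells, against 41.9 and 98.5 in WT CD34-positive cells, and its ratios of 11.5 in Runx1 iTG mice and 8.33 in WT mice were the smallest of the 4 probe sets.

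In each genotype, 4 of the 4 receptor probe sets were higher in CD34-negative cells without overlap of the arrays. The same held for 21% of all probe sets in Runx1 iTG mice and 19.8% in WT mice, and nothing is read from the receptors' count because the rule used this contrast. Ordered by the difference among all genes, Avpr1a ranked 21 in Runx1 iTG mice with a log2 difference of 4.99, between Tlcd4 at 5.15 and Slain1 at 4.97. In WT mice it ranked 4 with 6.93, between Lpl at 7.46 and Kank4 at 6.84. Oxtr ranked 47 in Runx1 iTG mice with 4.29, between Gsta3 at 4.30 and Bcas1 at 4.23, and 35 in WT mice with 4.61, between Arhgap8 at 4.63 and Acoxl at 4.57.

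**Figure D1:**
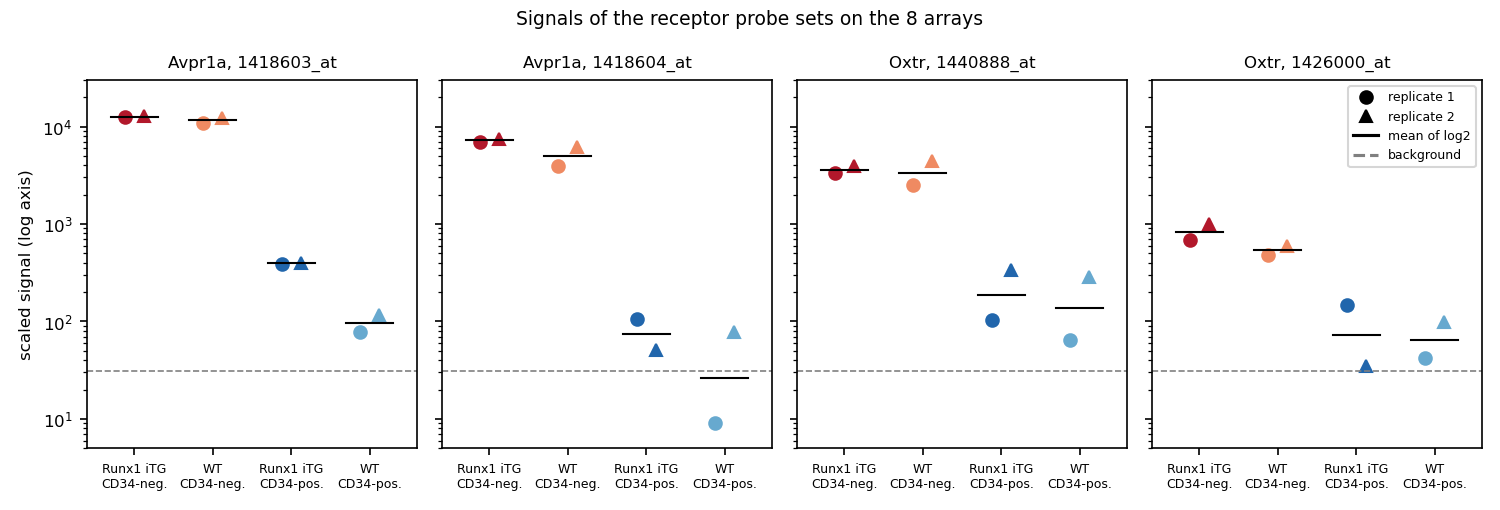
Scaled signal (log axis) of the 4 probe sets of Avpr1a and Oxtr on each of the 8 arrays, by genotype and CD34 population, with replicate 1 as circles, replicate 2 as triangles, the mean of log2 values as a line and background as a dashed line. Every CD34-negative array lies above every CD34-positive array, and the brighter Avpr1a probe set reads 390.1 and 402 in Runx1 iTG CD34-positive cells against 78.7 and 116 in WT CD34-positive cells.

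The arrays of replicate 1 and replicate 2 differed in sex-linked signals in all groups, which bears on the spread between replicates. Eif2s3y, a Y-linked gene, lay between 1853 and 2425 on the replicate 1 arrays and between 2.28 and 22.2 on the replicate 2 arrays. Xist, the RNA that coats the inactive X chromosome, lay between 30.2 and 72.5 on the replicate 1 arrays and between 9973 and 11103 on the replicate 2 arrays (probe set 1436936_s_at). The brighter probe sets of Avpr1a and Oxtr were each higher on the replicate 2 array in 4 of 4 groups, as were 7.72% of all probe sets. The second probe set of each gene was higher on it in 3 of 4 groups, as were 26.8% of all probe sets. Whether sex has a part in this was not tested, and in Runx1 iTG mice replicate 2 was also labelled a day older.

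Between genotypes, Avpr1a was higher in Runx1 iTG than in WT CD34-positive cells, while its level in CD34-negative cells was nearly the same in both. The CD34-positive arrays averaged 396 in Runx1 iTG mice and 95.4 in WT mice, a ratio of 4.15. The log2 difference was 2.05 (SE 0.25, 95% interval 1.50 to 2.61, n = 2 each; limma adjusted p = 0.0418 over all genes). Within replicate 1 the ratio was 4.95 and within replicate 2 it was 3.48. In this comparison 0.022% of all genes were called higher, 4 genes in all, and 0% lower by limma, although 500 genes were lower at an unadjusted p under 0.05. The other genes called were Runx1, Ces1d (a carboxylesterase of lipid metabolism) and Tsc22d3 (a glucocorticoid-induced regulator). The median difference of all genes was 0.023. The CD34-positive arrays of both genotypes also entered the values by which the receptor genes were picked.

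The call for Avpr1a in CD34-positive cells depended on each array and on the choice of probe set. No fit that left out 1 of the 8 arrays kept it past the threshold, with log2 differences of 1.78 to 2.33 and limma adjusted p of 0.0862 to 0.386. Adjusted over all probe sets in place of genes, the limma p was 0.0844 for the same probe set. The second probe set averaged 74.0 in Runx1 iTG and 26.6 in WT CD34-positive cells, at least 2.38-fold higher in Runx1 iTG cells since the WT mean lay below background (limma adjusted p = 0.917 over all probe sets). Its arrays overlapped between the genotypes: within replicate 1 it was at least 3.45-fold higher in Runx1 iTG cells, and within replicate 2 the ratio was 0.656. Of the 4 receptor probe sets, 1 was higher in Runx1 iTG CD34-positive cells without overlap, beside 15.3% of all probe sets.

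In CD34-negative cells, Avpr1a averaged 12581 in Runx1 iTG mice and 11622 in WT mice. The log2 difference of 0.11 (SE 0.25, 95% interval -0.44 to 0.67; limma adjusted p = 0.990) did not pass the test. The second probe set averaged 7214 in Runx1 iTG and 4954 in WT CD34-negative cells, with a log2 difference of 0.54 (SE 0.80, limma adjusted p = 0.981 over all probe sets). In this population 0.0165% of all genes were called higher and 0.011% lower. Of the 4 receptor probe sets, 3 were higher in Runx1 iTG CD34-negative cells without overlap, namely both of Avpr1a and the dimmer one of Oxtr, beside 17.7% of all probe sets.

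Averaged over both populations, the genotype difference of Avpr1a was 1.08 (SE 0.17, limma adjusted p = 0.0860) and did not pass, while 0.033% of all genes were called higher. The difference between populations was tested directly as the genotype difference in CD34-negative cells less that in CD34-positive cells. For Avpr1a it was -1.94 (SE 0.35, 95% interval -2.72 to -1.16), with an unadjusted limma p of 0.000257 and an adjusted p of 0.910. It did not pass, so the genotype effect is not shown to differ between the populations. The same quantity is the difference between the population differences of the 2 genotypes, 4.99 in Runx1 iTG and 6.93 in WT mice. Those differences picked the gene, so the p and interval are not free of that choice. That test called 0% of genes, although 839 of them had an unadjusted p under 0.05. The labels do not say whether bulge and hair germ samples of the same number came from the same animals.

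Oxtr showed no called difference between genotypes in either population. In CD34-positive cells it averaged 186 in Runx1 iTG mice and 136 in WT mice, a log2 difference of 0.44 (SE 0.69, 95% interval -1.10 to 1.99; limma adjusted p = 0.965). In CD34-negative cells it averaged 3622 in Runx1 iTG mice and 3329 in WT mice, a difference of 0.12 (SE 0.69, 95% interval -1.42 to 1.67; limma adjusted p = 0.998). Both intervals reach well to either side of 0, so differences of either sign fall within them. The dimmer probe set differed by 0.16 in CD34-positive and 0.62 in CD34-negative cells (SE 0.67 each, limma adjusted p = 0.994 and 0.962 over all probe sets). In the order of group means, both genes ran from Runx1 iTG CD34-negative through WT CD34-negative and Runx1 iTG CD34-positive to WT CD34-positive cells. Within each population the neighbouring genotypes did not differ past the test, except Avpr1a in CD34-positive cells.

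**Figure D2:**
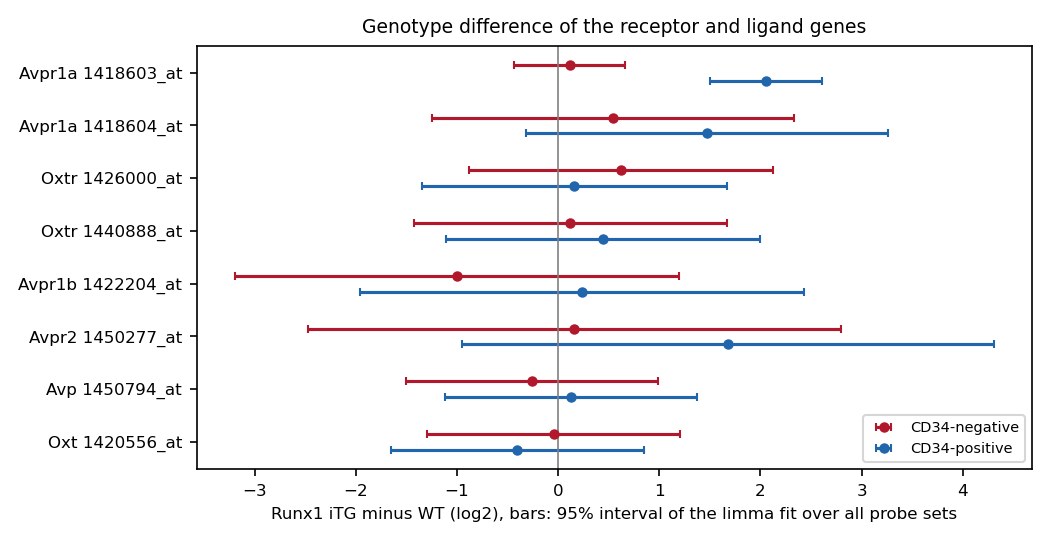
Runx1 iTG minus WT (log2, horizontal axis) for each probe set of the receptor and ligand genes, in CD34-negative cells (red) and CD34-positive cells (blue), with 95% intervals of the limma fit over all probe sets (n = 2 arrays per group). The interval of the brighter Avpr1a probe set in CD34-positive cells, 1.50 to 2.60, lies apart from 0, and the other intervals cross it. Avpr1b and Avpr2 lay mostly below background, so their points have no measured size.

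Markers of other cell types were read beside the Avpr1a difference. Of 13 marker lists, 3 had summed signals that were higher in Runx1 iTG than in WT CD34-positive cells without overlap, and 4 had lower ones. Of single probe sets, 15.3% were higher and 18% lower in this way, but the sums join several genes, so these shares are not a matched comparison. The higher lists were sebocyte, fibroblast and dermal papilla, and smooth muscle. The lower lists were bulge, hair germ, pericyte and skeletal muscle. The bulge sum was 101006 to 103104 in Runx1 iTG and 103472 to 126378 in WT CD34-positive cells, and the hair germ sum was 18187 to 18556 in Runx1 iTG and 18761 to 25142 in WT CD34-positive cells. The pericyte sum was 4065 to 4128 in Runx1 iTG and 4401 to 6855 in WT CD34-positive cells. The sebocyte sum over 4 measured markers was 6862 to 9369 in Runx1 iTG and 2851 to 3609 in WT CD34-positive cells, and 40612 to 41345 in Runx1 iTG and 26226 to 34958 in WT CD34-negative cells. No sebocyte marker passed the genotype test: Scd1 differed by 1.29 in CD34-positive cells (limma adjusted p = 0.362) and Far2 by 1.24 (limma adjusted p = 0.670). Cidea was at least 5.12-fold higher in Runx1 iTG CD34-positive cells (limma adjusted p = 0.272), with a mean of 159 there against 15.4 in WT cells, below background. Pparg, the defining regulator among them, averaged 31.3 in Runx1 iTG and 5.40 in WT CD34-positive cells, at and below background.

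The smooth muscle sum was 2816 to 4086 in Runx1 iTG and 1252 to 1437 in WT CD34-positive cells. Most of it was Smtn, whose difference of 1.63 did not pass (limma adjusted p = 0.308). Among the contractile markers in CD34-positive cells, Myh11 averaged 121 in Runx1 iTG and 92.0 in WT mice, and Cnn1 99.1 in Runx1 iTG and 73.0 in WT mice. Tagln averaged 69.4 in Runx1 iTG and 117 in WT CD34-positive cells, and Acta2 33.3 in Runx1 iTG and 59.1 in WT CD34-positive cells. Des, Actg2 and Lmod1 lay below background in both genotypes, and none of the 8 markers passed the genotype test. The fibroblast and dermal papilla sum was 9130 to 9187 in Runx1 iTG and 4868 to 5737 in WT CD34-positive cells, and Lum lay below background in all groups. Col1a1, a collagen gene, carried most of the sum, with means of 7026 in Runx1 iTG and 3863 in WT CD34-positive cells (limma adjusted p = 0.880). Col1a2 averaged 1791 in Runx1 iTG and 1166 in WT CD34-positive cells (limma adjusted p = 0.932). The part of these cell types in the Avpr1a difference was not tested.

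Set against its CD34-negative mean, the CD34-positive signal of Avpr1a was 3.15% in Runx1 iTG mice and 0.821% in WT mice. For Oxtr the values were 5.12% in Runx1 iTG mice and 4.10% in WT mice. For the sebocyte markers above background in both genotypes they were 30.8% in Runx1 iTG and 14.5% in WT mice for Scd1, and 6.0% in Runx1 iTG and 3.91% in WT mice for Far2. Each of these 4 genes thus kept a larger percentage in Runx1 iTG mice, by a factor that was smallest for Oxtr. Genes near Oxtr in profile and above background in both genotypes were mixed. Gsta3 kept 5.08% in Runx1 iTG and 5.12% in WT mice, Tgm2 4.35% in Runx1 iTG and 4.62% in WT mice, and Igfbp2 4.88% in Runx1 iTG and 3.05% in WT mice. These percentages are descriptions without a test.

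**Figure D3:**
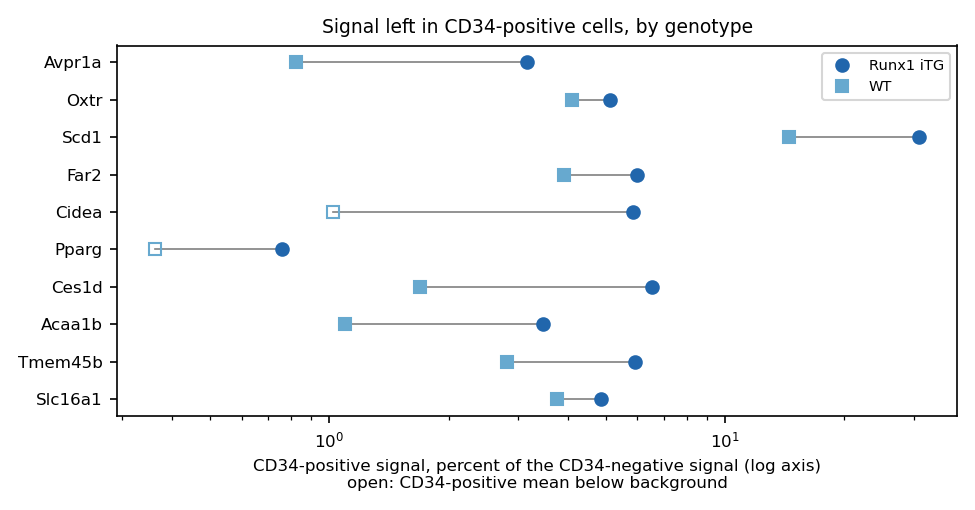
CD34-positive mean signal as a percentage of the CD34-negative mean of the same genotype (log axis) for the receptor genes, the sebocyte markers and 4 genes near Avpr1a in profile, with Runx1 iTG as circles and WT as squares, and open symbols where the CD34-positive mean lay below background. Avpr1a stands at 3.15% in Runx1 iTG and 0.821% in WT mice, and Oxtr at 5.12% in Runx1 iTG and 4.10% in WT mice. Bche, the gene nearest to Avpr1a, and the genes near Oxtr are not shown.

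The other receptors and the ligands were dim in all groups. Avpr1b, the pituitary vasopressin receptor, read 8.90 and 28.9 in Runx1 iTG and 43.1 and 24.0 in WT CD34-negative cells, and 13.1 and 47.9 in Runx1 iTG and 26.7 and 17.0 in WT CD34-positive cells. Most of these values lie below background. Avpr2, the kidney receptor that works through cyclic AMP, averaged 31.5 in Runx1 iTG and 28.2 in WT CD34-negative cells, and 10.6 in Runx1 iTG and 3.33 in WT CD34-positive cells, at or below background. Its CD34-negative arrays scattered, with 27.1 and 36.7 in Runx1 iTG and 89.5 and 8.88 in WT mice, and 2 arrays exceeded background. No fold is given for it, since the WT means of both populations lay below background.

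Avp encodes the vasopressin precursor, and Oxt beside it on chromosome 2 encodes the oxytocin precursor. Avp lay between 63.7 and 115 and Oxt between 136 and 377 over the 8 arrays. Avp averaged 81.4 in Runx1 iTG and 97.2 in WT CD34-negative cells, and 102 in Runx1 iTG and 93.8 in WT CD34-positive cells. Oxt averaged 184 in Runx1 iTG and 190 in WT CD34-negative cells, and 172 in Runx1 iTG and 227 in WT CD34-positive cells. Neither showed the step between populations seen for the receptors, and no genotype difference of Avp, Oxt, Avpr1b or Avpr2 passed the test. Of the 6 genes of receptors and ligands, 1 was called between genotypes, Avpr1a in CD34-positive cells, where 0.022% of all genes were called higher. As described above, that call depended on each array and on the choice of probe set.

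Among enzymes that process and amidate peptide hormones, 4 of 6 listed genes were measured. Cpe, the carboxypeptidase that trims prohormones, averaged 1737 in Runx1 iTG and 256 in WT CD34-negative cells. Its rise of 2.76 passed the test (limma adjusted p = 0.0414), but in none of the fits that left out 1 array, where the difference was 2.42 to 3.10. In CD34-positive cells it averaged 3858 in Runx1 iTG and 2136 in WT mice, a difference of 0.85 that did not pass (limma adjusted p = 0.781). Pam, the amidating enzyme of both hormones, averaged 1459 in Runx1 iTG and 1458 in WT CD34-negative cells. Pcsk1, a prohormone convertase, and Scg5, the chaperone of a related convertase, averaged at most 42.0 in any group.

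No measured gene of Gq and phospholipase C signalling passed the limma genotype test, 0 of 18 in either direction and either population. At an unadjusted p under 0.05 the count was 1 in CD34-negative cells (Prkce) and 1 in CD34-positive cells (Plcb4). Of all 18193 genes, 1233 had such a p in CD34-negative and 1084 in CD34-positive cells, for comparison here and in the lists below. Between populations, 1 of 18 rose and 1 of 18 fell in CD34-negative cells of Runx1 iTG mice, and 1 of 18 fell in WT mice. Each is 5.56% of the list, near the 4.5% higher and 5.26% lower of all genes in Runx1 iTG mice and the 3.79% lower in WT mice. The riser was Plcb4, a phospholipase C isoform, with means of 215 in CD34-negative and 23.0 in CD34-positive cells of Runx1 iTG mice (limma adjusted p = 0.0248). In WT mice it averaged 146 in CD34-negative and 89.6 in CD34-positive cells and did not pass (limma adjusted p = 0.667). Itpr3, an inositol trisphosphate receptor that releases stored calcium, fell in both genotypes. It averaged 614 in CD34-negative and 4320 in CD34-positive cells of Runx1 iTG mice (limma adjusted p = 0.000256), and 772 in CD34-negative and 3904 in CD34-positive cells of WT mice (limma adjusted p = 0.000596). The list's median population difference was -0.49 in Runx1 iTG and -0.41 in WT mice, beside medians over all genes of -0.06 and -0.08.

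In the 4 downstream lists, the genes called between populations were few, and all were lower in CD34-negative cells. For calcium and calcineurin signalling, 0 of 16 measured genes passed the limma genotype test, against 3 at an unadjusted p under 0.05 in each population, and 3 of 16 fell in CD34-negative cells in each genotype. That is 18.8% of the list, beside 5.26% of all genes in Runx1 iTG mice and 3.79% in WT mice. Nfatc1, a calcineurin target that is itself a bulge marker, averaged 567 in CD34-negative and 4836 in CD34-positive cells of Runx1 iTG mice, and 1311 in CD34-negative and 5816 in CD34-positive cells of WT mice. Rcan1, a feedback inhibitor of calcineurin, averaged 936 in CD34-negative and 3018 in CD34-positive cells of Runx1 iTG mice, and 1925 in CD34-negative and 5251 in CD34-positive cells of WT mice. Both passed in both genotypes. Among 10 measured genes of receptor desensitisation, none passed a genotype test by limma, and 2 had an unadjusted p under 0.05 in CD34-negative cells. Between populations, 1 of 10 fell in CD34-negative cells of Runx1 iTG mice, 10% beside 5.26% of all genes. In WT mice 0 of 10 fell, beside 3.79% of all genes. Arrb1, a beta-arrestin that uncouples activated receptors, averaged 69.5 in Runx1 iTG and 366 in WT CD34-negative cells (limma adjusted p = 0.401).

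In the prostaglandin and contraction list, 0 of 7 measured genes passed the limma genotype test, against 1 (Pla2g4a) at an unadjusted p under 0.05 in CD34-negative cells. Between populations, 2 of 7 fell in CD34-negative cells of Runx1 iTG mice, 28.6% beside 5.26% of all genes. In WT mice 0 of 7 fell, beside 3.79% of all genes. Pla2g4a, which frees arachidonic acid, fell in CD34-negative cells of Runx1 iTG mice by 1.36 on the log2 scale (limma adjusted p = 0.0496). Mylk, the myosin light chain kinase, fell there by 2.29 (limma adjusted p = 0.00957). In WT mice Pla2g4a differed by 0.098 (limma adjusted p = 0.925) and Mylk by -0.67 (limma adjusted p = 0.429). In the cyclic AMP branch, 0 of 9 passed between genotypes by limma, against 1 (Aqp1) at an unadjusted p under 0.05 in CD34-positive cells. Between populations, 1 of 9 fell in CD34-negative cells of Runx1 iTG mice, 11.1% beside 5.26% of all genes. In WT mice 2 of 9 fell, 22.2% beside 3.79% of all genes. Aqp3, a skin water and glycerol channel, averaged 4344 in CD34-negative and 14014 in CD34-positive cells of Runx1 iTG mice, and 6041 in CD34-negative and 14587 in CD34-positive cells of WT mice, and fell in both genotypes.

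For comparison with the 2 receptors, 25 other receptors of peptides and proteases that couple to Gq were listed, of which 23 were measured. None passed a genotype test by limma, and 8 of the 23 lay below background in every group. At an unadjusted p under 0.05 there were 1 in CD34-negative and 4 in CD34-positive cells. Of all 18193 genes, 1233 in CD34-negative and 1084 in CD34-positive cells had such a p. F2r, the thrombin receptor, was the one gene of this list called between populations. That is 4.35% of the list in each genotype, near the 4.5% of all genes called higher in Runx1 iTG mice and 3.14% in WT mice. It averaged 761 in CD34-negative and 116 in CD34-positive cells of Runx1 iTG mice (log2 difference 2.72, limma adjusted p = 0.0154), and 1230 in CD34-negative and 190 in CD34-positive cells of WT mice (2.70, limma adjusted p = 0.0205). The list's median population difference was -1.05 in Runx1 iTG and -0.79 in WT mice, beside medians over all genes of -0.06 and -0.08. Since part of the list lay below background, this median is no measure of receptor levels. Listed genes with no single-gene probe set, such as Itpr1 and Ednra, were not analysed here.

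**Figure D4:**
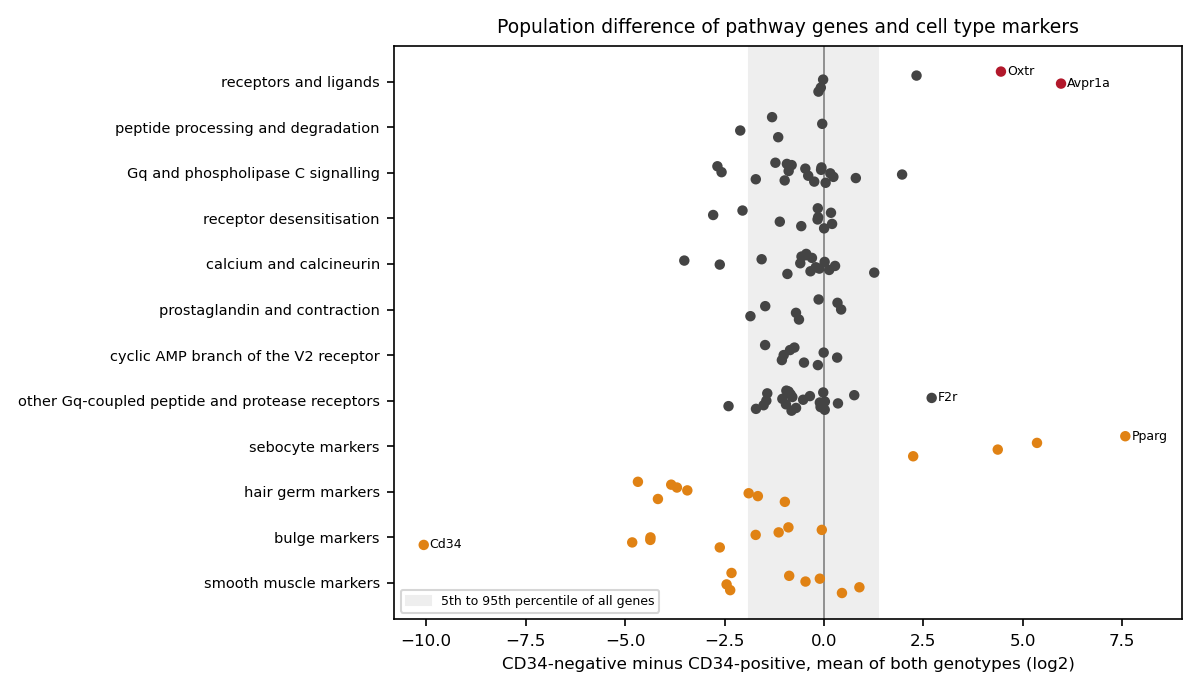
CD34-negative minus CD34-positive (log2, mean of both genotypes, horizontal axis) for each measured gene of 8 receptor and pathway lists (black, with Avpr1a and Oxtr in red) and of 4 marker lists (orange), over a grey band that holds the middle 90% of all genes. Avpr1a and Oxtr, which were picked on this contrast, lie to the right of the other listed signalling genes. The sebocyte markers lie to the right of 0. The hair germ and bulge markers lie to the left, except the bulge marker Itga6, which lies near 0 at -0.056.

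The genes most like each receptor were found by the mean absolute difference of log2 profiles over the 8 arrays, each profile centred on its own mean, among 14028 genes above background. Arrays of 1 population share most of this likeness, so it is a description of 8 arrays with no test. Nearest to Avpr1a were Bche at 0.55, Ces1d at 0.58, Acaa1b at 0.63, Tmem45b at 0.67 and Slc16a1 at 0.70. Bche encodes butyrylcholinesterase, Acaa1b a peroxisomal thiolase of fatty acid oxidation and Slc16a1 a lactate transporter. Nearest to Oxtr were Gsta3 at 0.37, Tgm2 at 0.40, Gpx7 at 0.42, Dusp4 at 0.44 and Igfbp2 at 0.48. Gsta3 encodes a glutathione transferase, Tgm2 a transglutaminase, Gpx7 a peroxidase, Dusp4 a MAP kinase phosphatase and Igfbp2 a binding protein of insulin-like growth factors.

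Avpr1a and Oxtr were not each other's closest genes. Their distance was 0.97, which placed Oxtr 27th in order of closeness to Avpr1a, and Avpr1a 87th in order of closeness to Oxtr. The profiles, read by the brighter probe sets, differed in CD34-positive cells, where Avpr1a separated the genotypes and Oxtr separated the replicate numbers. The second probe sets showed neither. That of Avpr1a overlapped between the genotypes, and that of Oxtr read 148 and 34.8 in Runx1 iTG against 41.9 and 98.5 in WT CD34-positive cells. Ces1d, the second nearest to Avpr1a, read 384 and 352 in Runx1 iTG CD34-positive cells against 52.1 and 47.6 in WT CD34-positive cells (log2 difference 2.88, limma adjusted p = 0.0266). Its likeness was measured on the same arrays and gives this call no further support. Acaa1b read 532 and 117 in Runx1 iTG CD34-positive cells against 25.5 and 44.6 in WT CD34-positive cells, and did not pass (limma adjusted p = 0.386). Tgm2, near Oxtr, averaged 135 in Runx1 iTG and 124 in WT CD34-positive cells (limma adjusted p = 0.995).

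**Figure D5:**
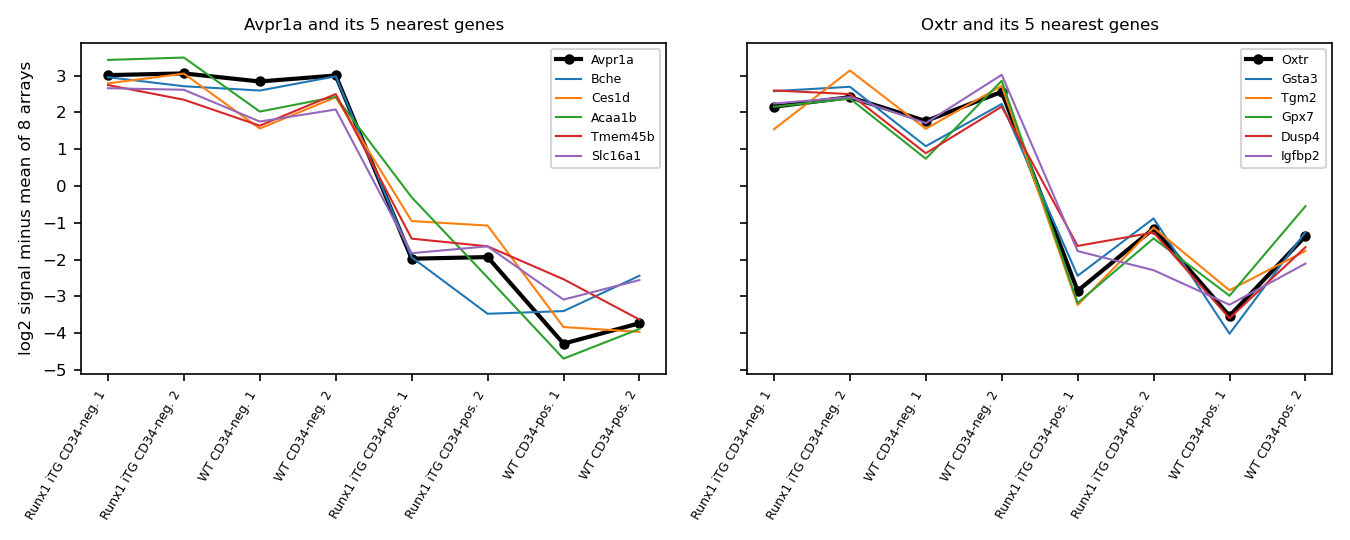
Log2 signal minus the mean of the 8 arrays (vertical axis) on each array (horizontal axis, replicates 1 and 2 of each group) for Avpr1a and Oxtr (black) and the 5 genes nearest to each in profile (coloured). All profiles step down from CD34-negative to CD34-positive arrays. On the CD34-positive arrays Avpr1a is higher in Runx1 iTG than in WT mice, while Oxtr is higher on the replicate 2 arrays, each drawn from its brighter probe set only.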

How the data were processed

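RNA from each of 8 samples (5 ng) was amplified with a NuGEN Ovation Pico kit, per the labels' protocols; dim transcripts can scatter more after such amplification. The deposited values are processed linear intensity for 45101 probe sets, and the sources used here do not name the program that summarised the probes. The 64 control probe sets were removed, the 75th percentiles of the arrays were made equal, values below 2.42 (3.48% of them) were set to 2.42, and log2 was taken. Group means are means of log2 values turned back. Background, 31.1, is the 95th percentile of 27 bacterial control probe sets, and a fold against a group below it is given as at least the brighter mean over 31.1. The brightest probe set stood for a gene. A limma model (version 3.58.1, R 4.3.3) with 1 mean per group and an intensity trend used all arrays (total degrees of freedom 9.87). The threshold was a Benjamini-Hochberg adjusted p of 0.05, and adjusted p-values come from this fit unless another is named. P-values measure the spread between samples labelled biological replicates, and the number of arrays limits the precision: the median SE of a genotype difference was 0.515 on the log2 scale. The fit was tested on simulated data. Members, lists, motifs, background limit and the naming rule (the receptors and ligands, sort genes, genes nearest in profile, and of each list the genes called or with the smallest p or largest population difference) were chosen with earlier results of these data known. Alternatives were other scaling, floors, filters, probe set rules, variance priors and sample sets, the replicate number as a block, and each array left out.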

Additional observations from a re-analysis of the deposited data

How the results depend on the processing

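With 2 arrays per group, precision is the main limit, and signals near background scatter most. The higher Avpr1a in Runx1 iTG CD34-positive cells (log2 2.05, limma adjusted p = 0.0418) kept its direction in all 19 alternatives and its call in 4 of the 11 that left out no single array: quantile normalization (limma adjusted p = 0.00732), no floor, no dim genes and the replicate block. It lost the call without scaling (2.03, limma adjusted p = 0.0526), with an offset of 50 (1.61, limma adjusted p = 0.119), with the mean of its probe sets (1.76, limma adjusted p = 0.599), over all probe sets (2.05, limma adjusted p = 0.0844), without the intensity trend (2.05, limma adjusted p = 0.305), on day 20 arrays (2.03, limma adjusted p = 0.451) and with the 2 groups compared alone (2.05, limma adjusted p = 0.939). The last of these settings have fewer arrays by construction; for the others the cause was not tested. Leaving out each array gave 1.78 to 2.33, with 0 of 8 past the threshold. Averaged over populations, Avpr1a passed with quantile normalization (1.18, limma adjusted p = 0.0379).

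The uncalled Oxtr differences changed sign on day 20 arrays: CD34-positive -0.40, CD34-negative -0.0081, average -0.21, and CD34-negative less CD34-positive 0.39, the last also with the mean of probe sets (0.070). Leaving out each array gave -0.64 to 1.53, -0.28 to 0.52, -0.26 to 0.82 and -1.41 to 0.76 in the same order. The Avpr1a population difference in Runx1 iTG mice was 4.93 without scaling, 4.82 with an offset of 50 and 5.80 with the mean of probe sets, and in WT mice 6.32 and 7.23 with the last 2 settings. For these changes the cause was not tested. Counts of genes called ranged over 0 to 11 (main 4) in CD34-positive cells, 0 to 12 (main 5) in CD34-negative cells, 1 to 29 (main 9) averaged and 0 to 3 (main 0) for the difference between populations. Cpe lost its call in 14 of 19 alternatives.

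Over all genes, same-numbered samples did not deviate together (correlations of -0.027 to 0.082), although the numbers also separate the arrays by sex-linked signals. With the replicate block, Avpr1a in CD34-positive cells differed by 2.05 (limma adjusted p = 0.0379), the SE of the Oxtr difference was 0.43 against 0.69 without it, the block changed no call of either receptor, and the count averaged over populations was 15 against 9.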
